A study of Mus musculus with 3 samples.

Results

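Levels of 10 genes that encode laminin chains, nidogens and the large basement membrane proteoglycans were followed in non-cardiomyocytes of mouse ventricles, by cell class and by phase of pressure overload. The genes were Lama2, Lama4, Lama5, Lamb1, Lamb2, Lamc1, Nid1, Nid2, Hspg2 and Agrn, chosen by name from the 27998 genes of each matrix, and all 10 were detected. Hearts came from wild-type male C57BL/6J JCL mice. Transverse aortic constriction (TAC), a ligation of the aortic arch that overloads the left ventricle, was performed at 8 weeks of age. The healthy library (labelled Control) stands for 0 weeks of TAC, the adaptive hypertrophy library for 2 weeks and the heart failure library for 12 weeks. There was 1 droplet-based single-cell RNA-seq library for each phase, made with the Chromium 3′ version 2 kit after collagenase digestion. The number of hearts behind each library, and whether the healthy hearts had a sham operation, are not given in the sources used here. Phase, age at harvest and library therefore cannot be told apart, no p-value was computed between phases, and every interval on a phase ratio covers counting error only.

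Basement membranes are thin sheets of matrix under endothelium and around muscle, mural and Schwann cells. Laminins are trimers of an α, a β and a γ chain, held at the cell surface by integrins and dystroglycan. Nidogens bind the γ1 chain and type IV collagen, and perlecan (Hspg2) and agrin (Agrn) are heparan sulfate proteoglycans that join this network and hold growth factors. In the heart, laminins with the α2 chain surround cardiomyocytes, whereas those with the α4 and α5 chains are typical of vessel walls.

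Cells were placed in classes by summed UMIs (unique molecular identifiers, each counting 1 captured RNA molecule) of marker genes, none of which is among the 10 genes. This gave 1091, 1798 and 317 endothelial cells (ECs), 1240, 98 and 194 fibroblasts (FBs), 344, 56 and 36 mural cells, 929, 192 and 175 blood cells and 43, 21 and 13 neural cells at 0, 2 and 12 weeks. The sums of these markers describe the classes but do not test them, since the same markers set the classes. Those of ECs summed to 9101 to 13320 UMIs per 1000000 UMIs of the class (CPM) in ECs and to at most 414 in FBs. Those of FBs summed to 23117 to 23954 CPM in FBs and to at most 468 in ECs. Mural cells carried 1365 to 2070 CPM of EC markers. The deposited barcodes had at least 1153, 577 and 421 UMIs, and the median over the cells kept was 2589, 1495 and 1434. The FBs at 2 weeks were few and had a median mitochondrial share of 7.62%, against 2.62% at 0 weeks and 4.74% at 12 weeks. Cardiomyocyte RNA also moved with phase in ECs, where at least 3 of 6 cardiomyocyte markers were detected in 17.4%, 6.40% and 1.58% of cells. Haemoglobin RNA in ECs stood at 99.0, 308 and 6894 CPM. The part of these differences in the results was not tested, apart from the alternatives given beside them. The libraries shared 5, 1 and 3 cell barcodes in their pairs.

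The genes were split unevenly between classes, and the α chains showed the clearest division. Lama2 stood highest in FBs and Lama5 in mural cells, and Lama4 was found in both ECs and FBs. Differences between classes were tested on the UMI sums of each class in each library with edgeR's quasi-likelihood test, with the library as a block. Here the 3 libraries, each of a different phase, serve as replicates of a class. With the block, the p-values measure how far class differences varied between these libraries, with the spread estimated over all classes together. Of the 10 genes, 3 were higher and 4 lower in ECs than in FBs, where 18.6% and 19.8% of the 7638 genes tested were. Compared with mural cells, 5 genes were higher and 3 lower in ECs (15.7% and 16.4% of all genes), and 6 were higher and 2 lower in FBs (15.3% and 16.5%).

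Lama2 (chr10:26980036-27619758, minus strand, GRCm38) encodes the α2 chain of muscle laminin, the chain lost in merosin-deficient muscular dystrophy. Its level in FBs was 228 CPM at 0 weeks, 194 at 2 weeks and 156 at 12 weeks. In ECs it stood at 4.07, 0.294 and 6.13 CPM, from 13, 1 and 3 UMIs. The EC and FB values did not overlap, and the log2 difference of ECs from FBs was -6.38 (SE 0.44, adjusted p = 5.96e-12 by edgeR). Mural cells had 28.0 and 11.6 CPM at 0 and 2 weeks and no UMI at 12 weeks, where 3 counts would be 28.6 CPM. The log2 difference of FBs from mural cells was 3.37 (SE 0.44, adjusted p = 8.13e-07 by edgeR), whereas ECs were not called different from blood cells (log2 difference -0.51, SE 0.72, adjusted p = 0.605).

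Lama4 (chr10:38965515-39110188, plus strand) encodes the α4 chain of endothelial laminins. Its level was 122, 161 and 77.6 CPM in ECs and 159, 137 and 100.3 CPM in FBs at 0, 2 and 12 weeks. The EC and FB values overlapped, and the log2 difference was -0.22 (SE 0.24, adjusted p = 0.516 by edgeR). Mural cells were lower, at 29.7, 40.6 and 19.1 CPM.

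Lama5 (chr2:180176373-180225859, minus strand) encodes the α5 chain of mature vessel walls and epithelia. It was highest in mural cells, at 102, 139 and 57.3 CPM, lower in ECs, at 18.8, 51.7 and 30.6 CPM, and nearly absent from FBs, with 9, 0 and 1 UMIs. The EC and mural values did not overlap, and the log2 difference of ECs from mural cells was -1.91 (SE 0.32, adjusted p = 3.72e-05 by edgeR). ECs were above FBs by 3.60 on the log2 scale (SE 0.48, adjusted p = 6.63e-07 by edgeR). In FBs the gene was not called different from blood cells (log2 difference 0.75, SE 0.93, adjusted p = 0.537 by edgeR). Among mural cells of the healthy library, smooth muscle cells had 3.51 times the Lama5 level of pericytes (95% interval 1.54 to 9.87), from 73 and 6 UMIs.

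The β chains divided the classes in another way. Lamb1 (chr12:31265234-31329644, plus strand), the β1 chain, was measured at 72.4, 131 and 93.9 CPM in ECs and 203, 145 and 71.7 CPM in FBs. In mural cells its 19 UMIs at 0 weeks gave 16.1 CPM, and no UMI was found at 2 or 12 weeks. Both ECs and FBs were above mural cells, with log2 differences of 3.03 (SE 0.46) and 3.58 (SE 0.45) and adjusted p-values of 9.50e-06 and 4.76e-07 by edgeR, and ECs and FBs were not called different (adjusted p = 0.148).

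Lamb2 (chr9:108479736-108490530, plus strand) encodes the β2 chain, known from the neuromuscular junction, the kidney filter and the walls of arteries. Here mural cells, which were below ECs and FBs for Lamb1, were above both. They had 279, 516 and 258 CPM, FBs 163, 384 and 218 CPM, and ECs 59.2, 125 and 151 CPM at 0, 2 and 12 weeks. In each library FBs stood between mural cells and ECs. The log2 difference of ECs was -1.86 from mural cells (SE 0.31, adjusted p = 3.05e-05 by edgeR) and -1.24 from FBs (SE 0.30, adjusted p = 0.0013), and the difference of FBs from mural cells was not called (-0.62, SE 0.30, adjusted p = 0.125).

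Lamc1 (chr1:153218922-153332786, minus strand), the γ1 chain shared by most laminins, and Nid1 (chr13:13437551-13512269, plus strand), which binds that chain, were both most abundant in FBs. Lamc1 was measured at 495, 502 and 290 CPM in FBs, 99.0, 134 and 69.4 CPM in ECs and 103, 116 and 66.8 CPM in mural cells. Nid1 was measured at 549, 415 and 288 CPM in FBs, 123, 121 and 71.5 CPM in ECs and 64.4, 40.6 and 47.7 CPM in mural cells. No EC or mural value reached the lowest FB value for either gene. The log2 differences of ECs from FBs were -2.13 for Lamc1 (SE 0.24) and -2.01 for Nid1 (SE 0.24), with adjusted p-values of 3.21e-08 and 7.86e-08 by edgeR. ECs and mural cells had a log2 difference of 0.00 for Lamc1 (SE 0.27, adjusted p = 0.998 by edgeR). The call of Nid1 higher in ECs than in mural cells (0.95, SE 0.29, adjusted p = 0.0132 by edgeR) did not hold without the healthy library (adjusted p = 0.067), without the 2-week library (0.158) or without the library block (0.104).

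Nid2 (chr14:19751265-19811787, plus strand), the second nidogen, was sparser. It was measured at 40.1, 69.6 and 38.8 CPM in ECs and 26.6, 19.0 and 14.3 CPM in FBs. The lowest EC value was above the highest FB value. The log2 difference was 1.05 (SE 0.35, adjusted p = 0.0188 by edgeR), and it was not called without the 2-week library (0.73, adjusted p = 0.199) or by DESeq2 (adjusted p = 0.0727).

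Hspg2 (chr4:137468769-137570630, plus strand), which encodes perlecan, had the most UMIs of the 10 genes in ECs in every library. Its level was 328, 951 and 394 CPM in ECs and 376, 986 and 322 CPM in FBs at 0, 2 and 12 weeks, and the values of both classes overlapped. The log2 difference between them was -0.01 (SE 0.23, adjusted p = 0.975 by edgeR). Mural cells had 114, 226 and 66.8 CPM, below ECs by 1.86 on the log2 scale (SE 0.26, adjusted p = 2.19e-06 by edgeR). Hspg2 UMIs were found in 49.0%, 71.4% and 41.0% of ECs against 2.91%, 2.60% and 2.29% of blood cells, with median depths of 2194, 1476 and 1301 UMIs in ECs and 2610, 1542 and 1428 in blood cells. After each cell was thinned to 1000 UMIs, which kept 1091, 1306 and 201 ECs, the shares of ECs were 26.8%, 55.8% and 31.3%, and no library had more than 0.969% of blood cells.

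Agrn (chr4:156165290-156197488, minus strand) encodes agrin, known as the organiser of the neuromuscular junction. ECs had 39.8, 68.4 and 47.0 CPM and FBs 11.0, 26.6 and 9.56 CPM, with no overlap. The log2 difference was 1.85 (SE 0.36, adjusted p = 1.59e-04 by edgeR). Mural cells had 53.4, 40.6 and 9.55 CPM, the last from 1 UMI, and their excess over FBs (log2 difference of FBs -1.84, SE 0.41, adjusted p = 9.39e-04 by edgeR) was not called without the healthy library (-0.57, adjusted p = 0.691).

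Blood cells, mainly leukocytes, carried little of any of the 10 genes. Their summed level was 70.5, 53.8 and 43.7 CPM, against 906, 1814 and 980 CPM in ECs and 2212, 2809 and 1472 CPM in FBs. Against blood cells, 9 genes were higher in ECs (23.3% of all genes), 9 in FBs (24.9%) and 8 in mural cells (25%). None was lower, where 21.3%, 21.9% and 21.9% of all genes were. The exceptions were Lama2 in ECs, Lama5 in FBs, and Lamb1 and Nid2 in mural cells. Nid2 in FBs passed narrowly (adjusted p = 0.0494 by edgeR) and was not called under 7 of the 10 alternatives tried.

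Neural cells, whose markers include those of Schwann cells, were few, and their sums were small. Their summed level was 1095, 2165 and 1232 CPM from 96, 83 and 28 UMIs. Nid1 was measured in them at 228, 365 and 264 CPM, and Nid2 at 57.0, 130 and 352 CPM from 5, 5 and 8 UMIs. The edgeR test placed Nid2 in FBs (log2 difference -2.05, SE 0.56, adjusted p = 0.0106) and in mural cells (-3.25, SE 0.68, adjusted p = 7.53e-04) below neural cells. Neither call held with a stricter gate of 4 marker UMIs and 10 times those of any other class (-0.94, adjusted p = 0.702, and -1.70, adjusted p = 0.486, by edgeR), and that of FBs was also lost without the 12-week library (-1.19, adjusted p = 0.257). In all, 4 genes were higher and 2 lower in FBs than in neural cells (10.6% and 5.03% of all genes). Agrn, lower in FBs, was not called without the healthy library (adjusted p = 0.131 by edgeR) or with the stricter gate (0.450). Nid1, higher in FBs, was not called without the healthy library (0.353), without the library block (0.0938) or with scaling by library size alone (0.185). Lamb2, also higher in FBs, was not called with the stricter gate (0.0913). Compared with neural cells, 1 gene was higher and 1 lower in ECs (15% and 8.31%). The one lower in ECs, Nid1, was not called when any 1 of the 3 libraries was left out (adjusted p = 0.0516 to 0.231 by edgeR). Nor was it called with the stricter gate (0.932), without the library block (0.0915) or without a filter on low counts (0.287). The one higher, Lamb2, was not called without the healthy library (adjusted p = 0.0934 by edgeR), with the stricter gate (0.372) or with scaling by library size alone (0.0823). Against mural cells the neural cells had 5 genes higher and 2 lower (7.15% and 15%), and against blood cells 7 higher and none lower (11.3% and 18.3%). With the stricter gate none of the 5 calls held (Lama4, Lamb1, Nid1, Nid2 and Hspg2, adjusted p = 0.092 to 0.486 by edgeR). Lama4 was also not called with any 1 library left out (adjusted p = 0.0653 to 0.479 by edgeR). Against blood cells, Lamb1 and Nid2 were not called with that gate (adjusted p = 0.0591 and 0.303 by edgeR).

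**Figure D1:**
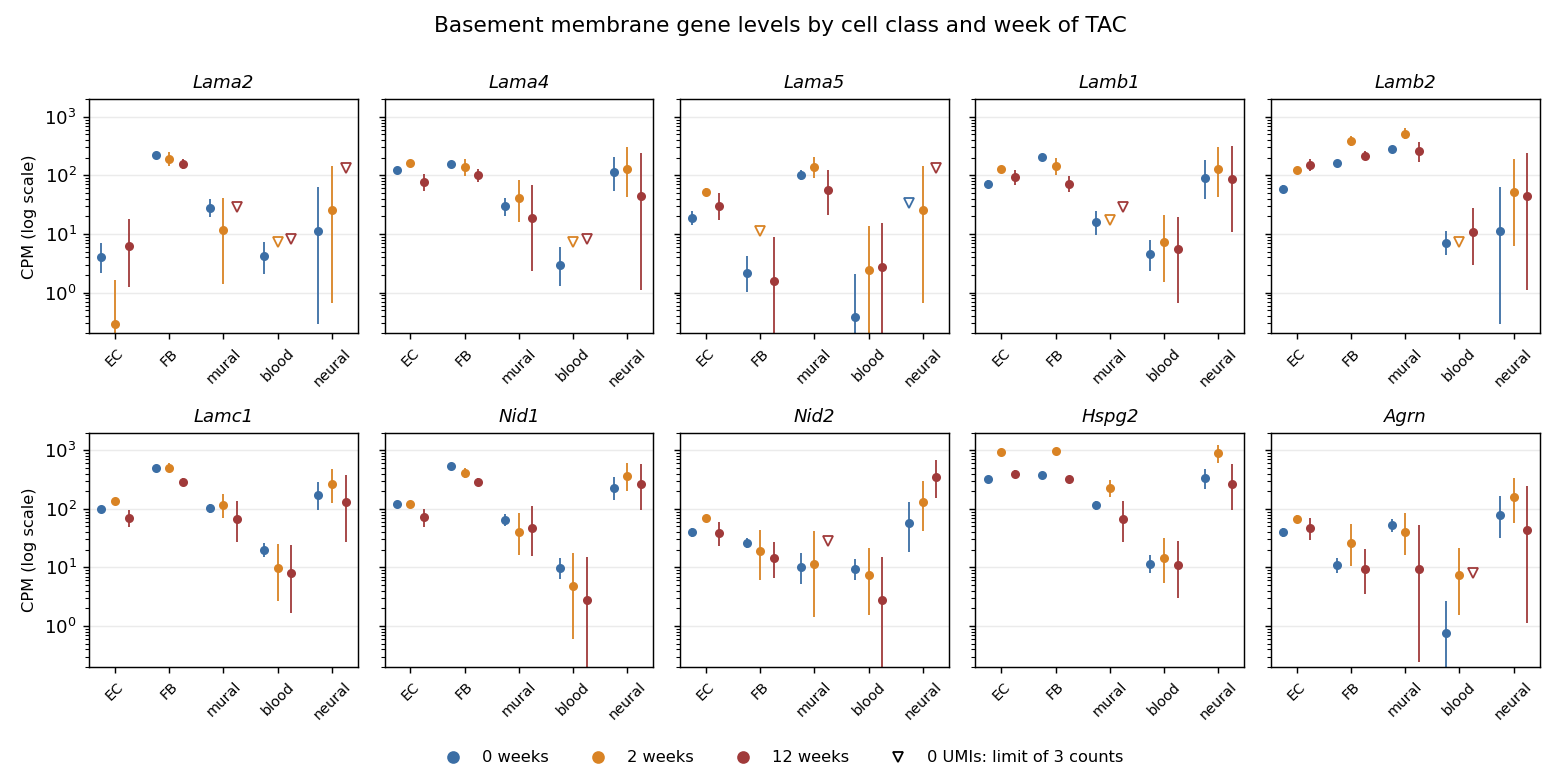
Level of each gene in CPM on a log axis, by cell class and week of TAC, with 95% Poisson intervals that cover counting error only, and open triangles at the level of 3 counts where no UMI was found. Lama2 stood highest in FBs, Lama5 and Lamb2 in mural cells, and Hspg2 was highest at 2 weeks in ECs (951 CPM) and in FBs (986 CPM).

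**Figure D2:**
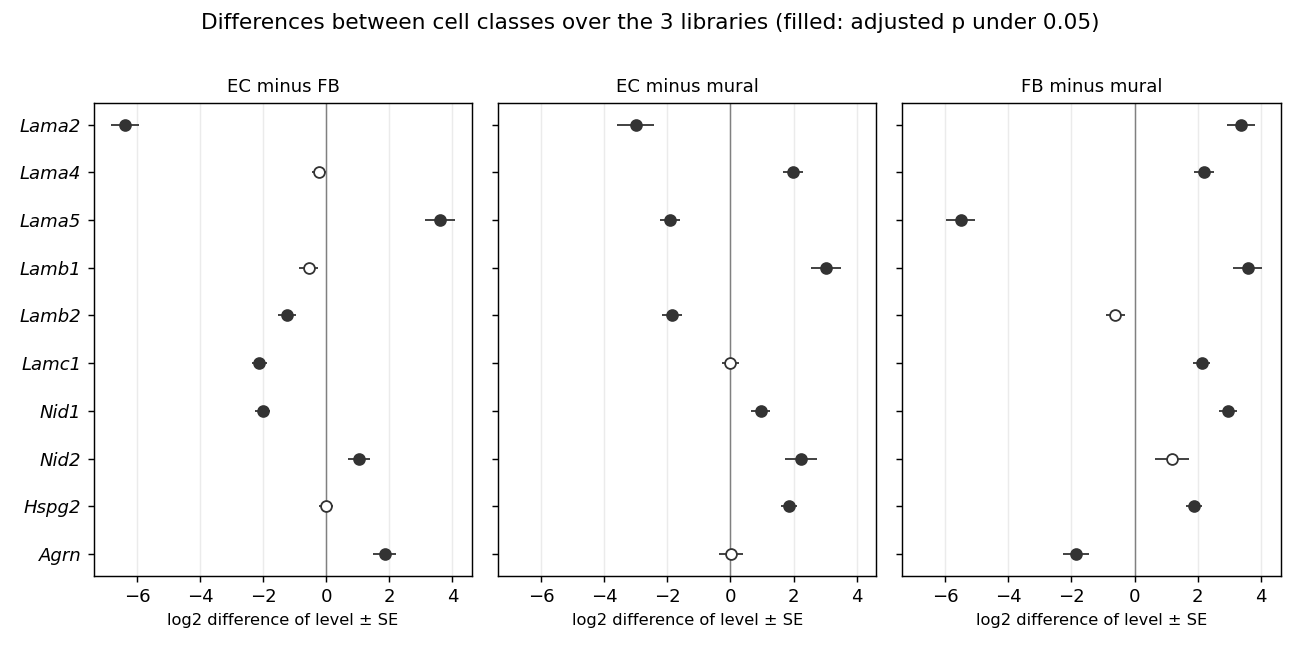
Log2 differences of the 10 genes between ECs, FBs and mural cells with standard errors from edgeR over 3 libraries, filled where the adjusted p is under 0.05. Lama2 (-6.38) and Lama5 (3.60) lie farthest apart between ECs and FBs, while Hspg2, Lama4 and Lamb1 are not called there.

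The next comparison asked how these levels stood at 2 weeks, in adaptive hypertrophy, against the healthy library. A gene was called when its levels, with 1 CPM added, differed at least 1.5-fold and its UMIs in the groups compared came to 20 or more. In ECs 9 genes could be compared, of which 6 were higher and none lower, where 11.8% of the 10361 genes compared were higher and 12.2% lower. Their median log2 ratio was 0.78, beside 0.02 over all genes. The summed level of the 10 genes was 2.00 times that of healthy ECs (95% interval 1.92 to 2.09). Hspg2 made up 36.2% of the UMIs in this sum in healthy ECs and 52.5% at 2 weeks.

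The largest EC ratio at 2 weeks was that of Hspg2, at 2.90 (2.71 to 3.12). Lama5 followed at 2.75 (2.04 to 3.75), and Lamb2 was at 2.11 (1.77 to 2.51). Lamb1, Nid2 and Agrn were 1.81, 1.73 and 1.72 times the healthy level, with lowest interval bounds of 1.54, 1.39 and 1.38. The γ1 chain, the α4 chain and nidogen 1 had the smallest ratios of the genes compared, at 1.36 (1.17 to 1.57) for Lamc1, 1.32 (1.15 to 1.5) for Lama4 and 0.987 (0.857 to 1.14) for Nid1. The remaining gene, Lama2, had 13 and 1 UMIs and was not compared. With cells that carried 3 cardiomyocyte markers left out, the Hspg2 ratio was 3.01.

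In FBs at 2 weeks only part of this set was higher. Hspg2 was 2.62 times the healthy level (2.29 to 2.99) and Lamb2 2.36 times (1.89 to 2.91). Agrn passed the limit at 2.43, but its 7 and 45 UMIs gave an interval of 0.925 to 5.43. None of the 9 genes compared was called lower, where 20.6% and 23.5% of all genes were called higher and lower, and the median log2 ratio of the genes was -0.21 beside -0.02 over all genes. Lamc1 (1.02, 0.845 to 1.21), Lama2 (0.853, 0.630 to 1.13) and Lama4 (0.864, 0.600 to 1.21) had intervals that held 1. Nid1 at 0.756 (0.618 to 0.916) and Lamb1 at 0.711 (0.499 to 0.984) were below the healthy level without passing 1.5-fold. The summed level was 1.27 times that of healthy FBs (1.18 to 1.37). This sum is weighted by abundance, and Hspg2 made up 17.0% of its UMIs in healthy FBs and 35.1% at 2 weeks.

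The 2-week FB values rest on 98 cells. When cells with over 10% mitochondrial UMIs were left out, 58 remained and the Hspg2 ratio was 1.99, while that of Lamb2 was 2.35. Epicardial markers other than Wt1 summed to 118 CPM in these FBs, against 39.5 at 0 weeks and 51.0 at 12 weeks. Without the 3 cells at 2 weeks, and the 3 and 1 cells of the other libraries, that carried at least 2 of them, the Hspg2 ratio was 2.64 and the Lamb2 ratio 2.34.

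Mural cells showed the same pair above the healthy level at 2 weeks, with Hspg2 at 1.98 (1.35 to 2.84) and Lamb2 at 1.85 (1.45 to 2.35). Lama5 was at 1.37 (0.844 to 2.13). Of the 8 genes compared, 2 were called higher and 2 lower, Lama2 and Nid1, where 16.3% and 23.1% of all genes were. The intervals of both lower genes held 1. The median log2 ratio was 0.31, beside -0.01 over all genes compared and 0.27 over the 517 more abundant genes used for median-ratio scaling. The summed level was 1.43 times that of healthy mural cells (1.22 to 1.67). This ratio was nearer to 1 after that scaling and in smooth muscle cells alone. In smooth muscle cells alone, 192 and 29 cells, Hspg2 was at 1.29 (0.750 to 2.12) and was not called, and Lamb2 was at 1.52 (1.10 to 2.06). In pericytes, 57 and 9 cells, they were at 2.41 (0.887 to 5.64) and 2.03 (0.817 to 4.41). In neural cells Hspg2 was also higher, at 331 CPM at 0 weeks and 887 CPM at 2 weeks, from 29 and 34 UMIs. Hspg2 was thus above the healthy library in each of these 4 classes, taken whole, at 2 weeks, and as all 4 were read from the same pair of libraries, they are not independent. In blood cells, the remaining class, Hspg2 was at 1.26 (0.430 to 3.07), from 31 UMIs at 0 weeks and 6 at 2 weeks, and was not called.

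At 12 weeks, in heart failure, most FB levels lay below the healthy library and the EC levels lay on both sides of it. In ECs 2 of 9 genes were called higher and 2 lower, where 21% and 15.7% of all genes were, and the median log2 ratio was 0.23 beside 0.10 over all genes. Lamb2 was 2.55 times the healthy level (1.92 to 3.35). Lama5 was called at 1.63, with an interval of 0.859 to 2.90 from 15 UMIs, and was at 1.49 after median-ratio scaling and 1.09 in cells with at least 4 EC marker UMIs and 10 times those of any other class. Lama4 was at 0.635 (0.443 to 0.887) and Nid1 at 0.583 (0.400 to 0.825), both below the healthy library, but with equal weight for every cell no gene was called lower. Hspg2 was at 1.20 (1.03 to 1.40), and the summed level at 1.08 (0.980 to 1.19).

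In FBs at 12 weeks no gene was called higher and 5 of 9 were called lower, where 14.9% and 14.6% of all genes were. The median log2 ratio was -0.66, beside 0.02 over all genes. Lamb1 was lowest, at 0.352 (0.255 to 0.476), from 203 to 71.7 CPM. Nid1 followed at 0.525 (0.449 to 0.611), Nid2 at 0.540 (0.240 to 1.06), Lamc1 at 0.586 (0.501 to 0.682) and Lama4 at 0.633 (0.480 to 0.820). Lama2 fell just short of the limit for a call, at 0.686 (0.551 to 0.845). Lamb2 was the exception among the abundant genes, at 1.34 (1.11 to 1.61). With equal weight for every cell, 3 genes were called lower in place of 5. The summed level was 0.665 of that in healthy FBs (0.621 to 0.712).

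Mural cells at 12 weeks numbered 36, and 6 of 8 genes were called lower and none higher, where 31.6% and 20.4% of all genes were. None of the 6 intervals left out 1. Lamb2 stood at 0.924 of the healthy level (0.600 to 1.37). The summed level was 0.657 of that in healthy mural cells (0.491 to 0.863), and this ratio was nearer to 1 with equal weight for every cell.

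Set against the 2-week library, the 12-week library was lower in all of the summed levels. The ratio was 0.540 in ECs (0.492 to 0.593), 0.524 in FBs (0.475 to 0.578), 0.460 in mural cells (0.335 to 0.623) and 0.569 in neural cells (0.357 to 0.883), and in blood cells it was 0.812 (0.398 to 1.62). In ECs 6 of 9 genes were lower and none higher (13.7% and 19.4% of all genes), and in FBs 4 of 7 were lower and none higher (16.7% and 18.4%). In mural cells all 4 that could be compared were lower and none higher (19.8% and 14.5%). Among these lower genes, the intervals of Lama5 (0.138 to 1.03) and Lamc1 (0.206 to 1.42) in mural cells held 1. That of Lama5 in ECs (0.325 to 1.005) did too. With equal weight for every cell, 1 gene was called lower in FBs in place of 4, and the mural ratio of the summed level was 0.700. Hspg2 was at 0.414 in ECs (0.356 to 0.479) and 0.326 in FBs (0.270 to 0.394). Lamb2 in ECs was the one gene compared that lay above 1 in that class, at 1.21 (0.933 to 1.55). These ratios share the 2-week library with those against the healthy library and are not independent of them.

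**Figure D3:**
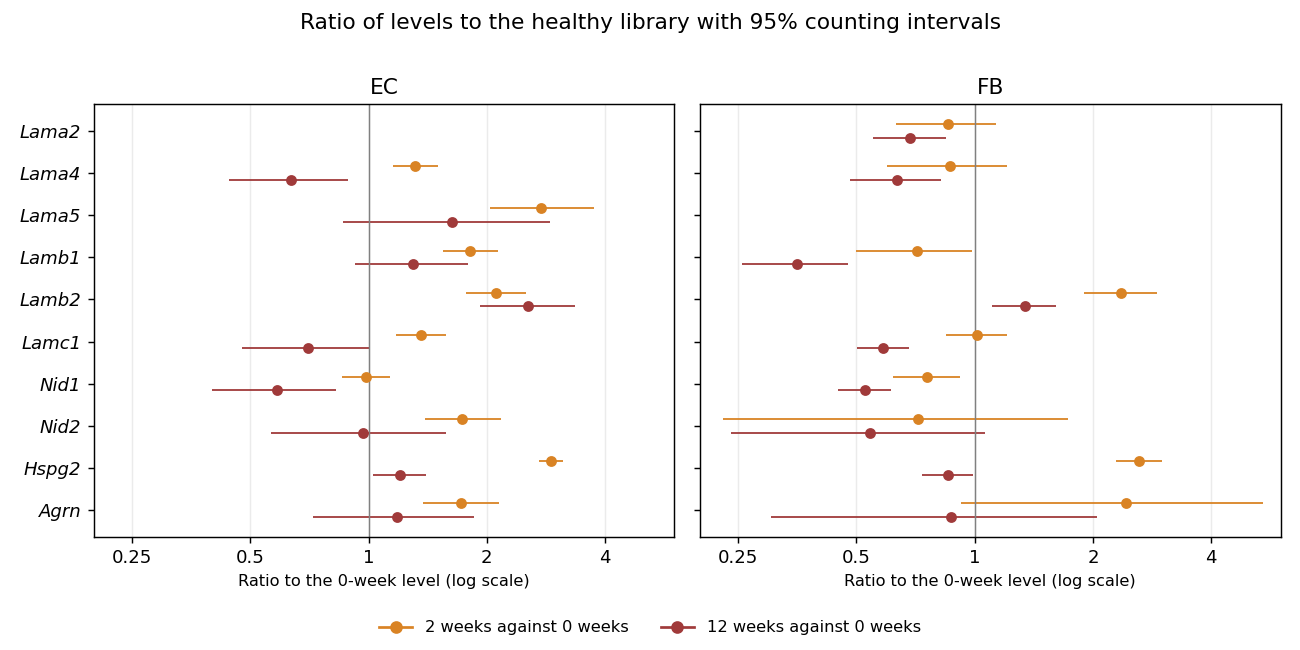
Ratio of each gene's level at 2 weeks and at 12 weeks to that of the healthy library in ECs and FBs, on a log axis with 95% intervals from counts, for genes with 20 or more UMIs in the groups compared. At 2 weeks Hspg2 and Lamb2 lie right of 1 in both classes, and at 12 weeks Lamb2 is the one gene whose interval stays right of 1 in both, while Nid1 and Lama4 lie left of 1.

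Laminin chains are used in place of one another, so the share of each chain among the studied chains of its kind was compared between classes and libraries. The α chain UMIs are those of Lama2, Lama4 and Lama5, and the β chain UMIs those of Lamb1 and Lamb2. The chains Lama1, Lama3 and Lamb3 were not counted in these shares. UMIs of different genes may be captured unequally, so a share is compared with the same chain's share in another class or library. Lamb2 made up 44.5% of β chain UMIs in healthy FBs (95% exact binomial interval 41.9 to 47.0), 72.7% at 2 weeks (64.5 to 79.9) and 75.3% at 12 weeks (68.3 to 81.4). At 2 weeks this went with a higher Lamb2 level, and at 12 weeks mainly with a lower Lamb1 level. In ECs the share was 45.0%, 48.7% and 61.7%, and in mural cells it was 94.5%, 100% and 100%. Lama5 made up 13.0%, 24.3% and 26.8% of α chain UMIs in ECs, and Lama4 made up 84.2%, 75.6% and 67.9%. The EC shares at 12 weeks rest on 56 UMIs. The interval of the Lama5 share was 15.8 to 40.3 there and 10.0 to 16.4 at 0 weeks. In FBs the share of Lama2 hardly moved, at 58.6%, 58.6% and 60.5%.

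ECs are a mixture of vessel types, and those types differed in their laminin chains. By markers of each type, 809, 1285 and 185 ECs were capillary, 83, 151 and 36 arterial, and 44, 45 and 20 venous or endocardial. Lamb2 made up 35.7%, 35.9% and 42.9% of β chain UMIs in capillary ECs, and 82.4%, 83.6% and 81.0% in arterial ECs. The arterial and capillary shares did not overlap. In the healthy library arterial ECs had 3.49 times the Lamb2 level of capillary ECs (2.21 to 5.33), but 0.117 times the Lama4 level (0.0240 to 0.345) and 0.262 times the Hspg2 level (0.155 to 0.417). At 2 and 12 weeks the Lamb2 ratio was 4.49 (3.51 to 5.72) and 3.83 (1.90 to 7.63). That of Hspg2 was 0.789 (0.683 to 0.908) and 0.189 (0.0605 to 0.454), and that of Lama4 0.680 (0.459 to 0.975) and 0.206 (0.005 to 1.27). The low healthy ratios of Lama4 and Hspg2 rest on 3 and 18 arterial UMIs, and at 2 weeks both were nearer to 1. With 1 library per phase, no ratio has a replicate within its phase.

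Within each vessel type Hspg2 was again higher at 2 weeks than in the healthy library. The ratio was 2.62 in capillary ECs (2.43 to 2.83), 7.89 in arterial ECs (4.87 to 13.6) and 4.71 in venous or endocardial ECs (2.77 to 8.32). Lamb2 was 1.88, 2.42 and 3.30 times the healthy level in the same types, with lowest bounds of 1.48, 1.58 and 1.66. At 12 weeks the Lamb2 ratio was 1.71 in capillary ECs (1.02 to 2.75), 1.89 in arterial ECs (0.968 to 3.57) and 3.58 in venous or endocardial ECs (1.66 to 7.85). The Lama5 ratio at 12 weeks was 0.524 in capillary ECs (0.105 to 1.62), from 3 UMIs against 50. It was 4.66 in arterial ECs (1.10 to 22.4), from 6 UMIs against 4, and venous or endocardial ECs had 1 UMI in each library. Capillary cells made up 74.2% of healthy ECs and 58.4% of those at 12 weeks. The types were also weighted to their healthy mixture, which left out lymphatic ECs and ECs of mixed or no type (34 and 37 cells at 12 weeks). The ratio of Lamb2 at 12 weeks was then 1.92, beside 2.55 over all ECs, and that of Lama5 was 0.968, beside 1.63. These pairs of ratios differ in the cells used as well as in the mixture, and the share of each was not tested. The Hspg2 ratio at 2 weeks was 2.80 with the same weights.

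**Figure D4:**
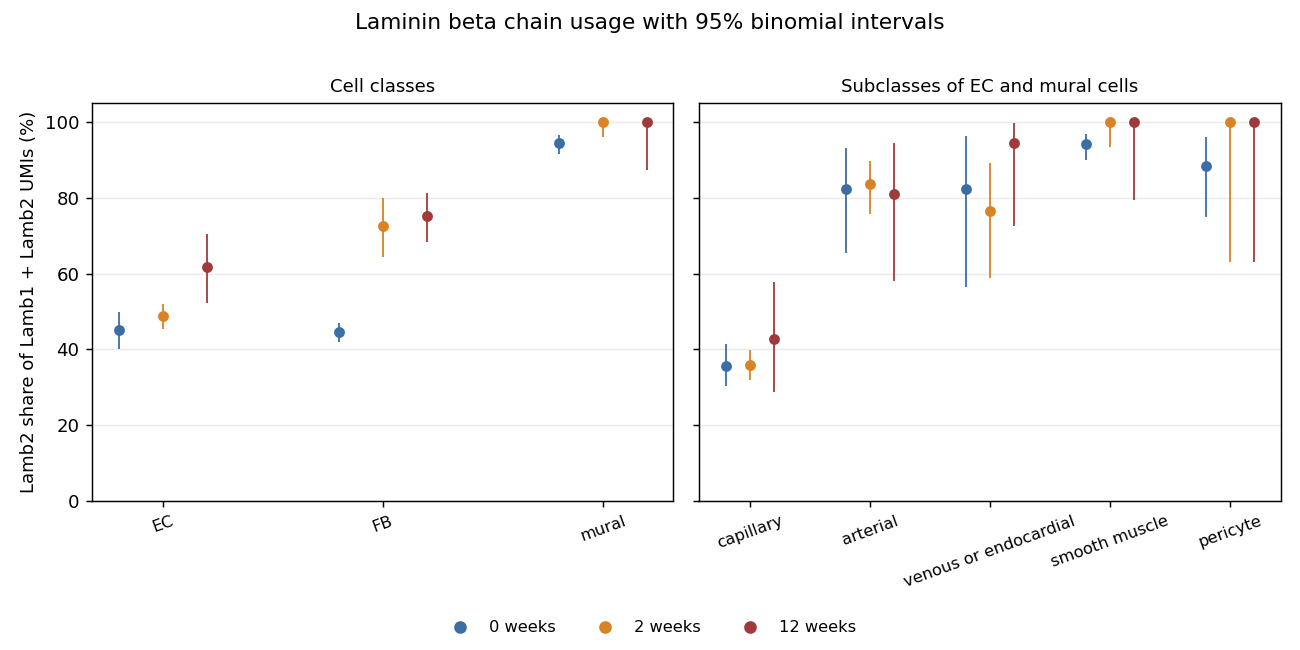
Share of Lamb2 among the UMIs of Lamb1 and Lamb2 in percent, by class and by subclass of ECs and mural cells, with 95% exact binomial intervals. In FBs the share was 44.5% at 0 weeks and 75.3% at 12 weeks, and arterial ECs lay above 80% in every library where capillary ECs lay below 45%.

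The basement membrane also holds type IV collagen and collagens XV and XVIII, and cells bind its laminin through integrins and dystroglycan. A list of 60 partner genes took in these, enzymes that modify the matrix, and others such as Dmd and Utrn. Of the 60 partner genes, 46 could be tested between classes, and 12 were higher and 30 lower in ECs than in FBs, where 18.6% and 19.8% of all genes tested were. Itga6, a laminin-binding integrin subunit, was higher in ECs than in FBs (log2 difference 5.46, SE 0.39, adjusted p = 9.84e-12 by edgeR). Itga7, its counterpart in muscle, was lower in ECs than in mural cells (-7.54, SE 0.46, adjusted p = 4.26e-12 by edgeR). Dag1, which encodes dystroglycan, was lower in ECs than in FBs (-0.86, SE 0.26, adjusted p = 0.00975 by edgeR).

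Between phases the partner genes were mixed. At 2 weeks 7 of 44 were higher and 9 lower in ECs (11.8% and 12.2% of all genes), and 14 of 47 were higher and 9 lower in FBs (20.6% and 23.5%). Col4a1, a chain of the ubiquitous type IV collagen, was 1.65 times the healthy level in ECs (1.57 to 1.73) and 1.78 times in FBs (1.51 to 2.08). Its partner chain Col4a2 was 2.52 times in FBs (2.08 to 3.04) and stayed below the limit in ECs, at 1.48. Col15a1 and Col18a1, both proteoglycan collagens of vessel basement membranes, were 2.36 times (2.07 to 2.71) and 1.94 times (1.54 to 2.46) in ECs. The syndecan Sdc3, a heparan sulfate proteoglycan of the cell surface, was 3.29 times in ECs (2.78 to 3.91) and 6.51 times in FBs (5.18 to 8.14), and Gpc1, a glypican, was 5.30 times in FBs (2.97 to 9.06). The integrin subunit Itga1 was lower in ECs, at 0.491 (0.403 to 0.597).

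At 12 weeks 12 of 39 partner genes were higher and 11 lower in ECs (21% and 15.7% of all genes), and 7 of 47 were higher and 12 lower in FBs (14.9% and 14.6%). Col4a1 was at 0.609 in ECs (0.533 to 0.694) and 0.566 in FBs (0.470 to 0.677), and Col4a2 at 0.504 and 0.482. Sparc, which binds collagen IV, was at 0.498 in ECs (0.464 to 0.533) and 0.387 in FBs (0.367 to 0.408). The rarer chains Col4a3, Col4a4 and Col4a5 were at 0.316, 0.445 and 0.321 in FBs. On the higher side stood Col18a1 at 2.13 in ECs (1.42 to 3.13), Tinagl1, which encodes a matrix protein, at 1.65 in ECs (1.46 to 1.86), and Fbln1, which encodes the matrix protein fibulin 1, at 2.05 in FBs (1.91 to 2.20).

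Some of the 10 genes followed each other across groups. Over the 14 groups of class and phase with at least 20 cells, the levels of Lamc1 and Nid1 had a Pearson r of 0.970 and those of Lama4 and Hspg2 one of 0.966, on the log2 scale with 10 CPM added. Among 7961 genes, Lama4 was the nearest to Hspg2, Nid1 was second to Zbtb20 in likeness to Lamc1, and Igfbp5 was nearest to Lamb2 (r = 0.976). Lama5 and Lama2 had an r of -0.32. These groups share libraries and depth, and the values are given as a description.

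Hspg2 and Lamb2 were the genes called higher at 2 weeks in ECs, FBs and mural cells, each taken whole, with intervals that left out 1, whereas Nid1 was called higher in none of these classes. Their promoters are shown to set the sequences of this pair beside that of Nid1. RefSeq sequences from 250 bases before to 50 after RefSeq's own gene start were at hand for 7 of the 10 genes (build GRCm38.p6), all but Lama4, Lamc1 and Nid2. Capitals mark the GC box GGGCGG on either strand, and the sequences run 5′ to 3′ along the gene's strand, which is the plus strand for these 3 genes. For all 3 the RefSeq start lies downstream of the GENCODE start given with each gene above.
Hspg2, chr4:137468553-137468852: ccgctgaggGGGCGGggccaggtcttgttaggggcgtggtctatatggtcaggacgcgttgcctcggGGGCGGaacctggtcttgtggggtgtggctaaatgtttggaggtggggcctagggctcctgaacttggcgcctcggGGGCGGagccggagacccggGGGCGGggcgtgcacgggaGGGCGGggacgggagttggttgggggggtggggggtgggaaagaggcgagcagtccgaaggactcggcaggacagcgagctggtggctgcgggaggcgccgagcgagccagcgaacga
Lamb2, chr9:108479612-108479911: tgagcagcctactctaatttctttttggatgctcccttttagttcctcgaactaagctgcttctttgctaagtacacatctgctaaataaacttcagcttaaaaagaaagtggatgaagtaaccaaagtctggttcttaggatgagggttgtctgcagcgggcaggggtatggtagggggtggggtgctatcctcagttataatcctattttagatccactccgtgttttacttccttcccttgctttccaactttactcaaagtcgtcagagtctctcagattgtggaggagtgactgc
Nid1, chr13:13437352-13437651: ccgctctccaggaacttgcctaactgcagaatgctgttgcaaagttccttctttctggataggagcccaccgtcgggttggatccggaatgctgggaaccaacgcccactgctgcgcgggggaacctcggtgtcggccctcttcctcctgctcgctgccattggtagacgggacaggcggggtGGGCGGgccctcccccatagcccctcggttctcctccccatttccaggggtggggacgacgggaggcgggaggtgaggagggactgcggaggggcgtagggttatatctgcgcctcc
The Hspg2 window held 5 GC boxes and 70.3% G and C, the Nid1 window 1 and 64.7%, and the Lamb2 window none and 44.0%, where the median of 32851 promoters was 52.7%. A GC box was found in 35.7% of all promoters of this length. None of the 3 windows held TATAAA (13.6% of all), the AP-1 motif TGANTCA (7.81%) or the E-box CACGTG (7.15%), searched on both strands. Nid1 alone held CCAAT (37.4%) and the ETS core CCGGAA (14.9%), once each. The pair that was higher at 2 weeks thus shared none of the 6 motifs, and a match or its absence in such a window is a description of the letters only.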

How the data were processed

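The authors made 3′ single-cell libraries, and per the labels' processing notes Cell Ranger 2.0.0 and the mm10 build were used. They deposited raw UMI counts, 1 matrix per phase, without normalization. Cells with at least 200 genes were kept (3892, 2231 and 792 of 3900, 2239 and 802, with 12287823, 4465929 and 1712728 UMIs). A cell joined the class whose marker UMIs numbered at least 2 and at least 3 times those of any other class, which left 243, 57 and 28 mixed cells and 2, 9 and 29 cells without a class out. No doublet caller was run. Subclasses used a 2-fold rule. Classes cut from marker sums are ranges, not types fixed by clustering.

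UMIs were summed per class and library. CPM is UMIs per 1000000 UMIs of the class. Phase ratios are ratios of CPM with exact conditional binomial 95% intervals, levels have exact Poisson intervals, and 3 counts set the limit of a 0. Classes were compared with edgeR 4.0.16 (R 4.3.3; quasi-likelihood, library block, Benjamini-Hochberg over all genes of a pair), which was tested on simulated data, with DESeq2 1.42.0 as an alternative. The block is the library itself, since all classes of a library come from the same hearts. Other work used Python 3.11.15, numpy 2.4.6, scipy 1.17.1, pandas 2.3.3 and matplotlib 3.10.9. Gene positions are from GENCODE M21 (GRCm38), matched by Ensembl identifier.

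All 10 genes are named. Partner genes are named when called with an interval that leaves out 1 and at least 50 UMIs over both groups, and a selection of these is given. The 3 partner genes named for the class test were picked after their values were seen. Likeness of pattern was ranked by Pearson r among genes with 200 or more UMIs. The genes, lists and tests were chosen with earlier results of these data known. Alternatives were a stricter gate, other markers, 500 genes per cell, mitochondrial and cardiomyocyte filters, other scalings, pseudocounts and count minimums, and each library left out. Capillary cells alone, smooth muscle cells alone and FBs without epicardial marker cells were added after seeing the data.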

Additional observations from a re-analysis of the deposited data

Results flagged for a closer look

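For 2 ratios, ECs and FBs lay on opposite sides of the healthy library with both intervals leaving out 1. Lamb1 at 2 weeks was 1.81 times the healthy level in ECs (95% interval 1.54 to 2.13) and 0.711 times in FBs (0.499 to 0.984). Hspg2 at 12 weeks was 1.20 times the healthy level in ECs (1.03 to 1.40) and 0.856 times in FBs (0.735 to 0.992), and with equal weight for every cell the FB ratio was 1.19. The difference between the classes was not tested in either case, since each phase is 1 library.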

How the results depend on the processing

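Each phase is 1 library, so no alternative replaces a replicate. The mural and 2-week FB sums are small, and a 1.5-fold change in genes with under 20 UMIs could not be called.

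Giving every cell equal weight (mean over cells of counts per 10000) moved the summed level of the 10 genes most, to 2.38 (2 weeks) and 1.38 (12 weeks) in ECs, 0.791 in FBs and 0.933 in mural cells at 12 weeks, and 0.580 and 0.700 in FBs and mural cells at 12 against 2 weeks. It also turned the Hspg2 ratio of FBs at 12 weeks to 1.19. The cause was not tested. With capillary cells alone the EC ratios were 1.86 and 0.971. Without cells of over 10% mitochondrial UMIs the 2-week FB ratio was 1.15, and the 2-week mural ratio was 1.19 after median-ratio scaling and 1.13 in smooth muscle cells alone. That scaling shifted the median gene by over 0.1 (log2) for 12 against 0 weeks in ECs (0.13) and mural cells (0.20), 2 against 0 weeks in mural cells (0.27), blood cells (0.15) and neural cells (0.17), and 12 against 2 weeks in FBs (-0.13).

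Counts of called genes moved as follows. In ECs at 12 weeks, the higher count went from 2 to 1 with the stricter gate, the study's markers, 500 genes per cell, median-ratio scaling or a pseudocount of 10 CPM, and to 4 with equal weight per cell, where the lower count went from 2 to 0. With equal weight per cell, FBs at 12 weeks had 1 gene higher and 3 lower, and 1 lower against 2 weeks. A single gene was called lower at 2 weeks in ECs (the study's markers, no minimum of UMIs) and in FBs (stricter gate, 500 genes, no minimum), and 1 higher at 12 against 2 weeks in both classes without a minimum.

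Of 49 class calls that did not involve neural cells, 2 were lost without the replicate block, and at most 7 when a library was left out (without the healthy library). Genes lower in FBs than in mural cells numbered 1 to 2 over the libraries left out. With neural cells, 4 of 22 calls were lost without the block and 12 with the stricter gate.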
